A study of Oryza sativa Japonica Group with 8 samples.

Results

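The loci described here are those of rice (Oryza sativa ssp. japonica) whose RNA was high in flag leaves after flowering and low in leaves before flowering, in roots before flowering, in flowers and in grains. They were chosen by their measured values: at least 10 FPKM (fragments normalised to transcript length and to the number of mapped fragments) in leaves after flowering, and there at least 5 times the highest of 6 other libraries, with 1 FPKM added to both sides. The rule found 150 loci, out of 31187 in the deposited table. Among the 9496 loci that reached 10 FPKM in leaves after flowering, the members are 1.58%. The level in leaves after flowering and its distance from the 6 other libraries are therefore the choice itself, and are given as a description.

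Poly(A) RNA was sequenced from flower buds taken before flowering, flowers on the flowering day, flag leaves and roots at a stage before and a stage after flowering, grains at the milk stage and mature seeds, all from greenhouse plants of the japonica subspecies; the labels name no cultivar, mutant or treatment. Each of these 8 groups held 1 library. The leaf and root stages are mixtures: the earlier one spans panicle initiation up to the eve of flowering, the later one various times after it, so neither is a single time point. The libraries do not record the strand of a read.

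The flag leaf is the uppermost leaf of the rice shoot and a main source of sugars for the growing grain. During grain filling it exports assimilates, and it later senesces, a programmed process in which chlorophyll and proteins are broken down and nitrogen and minerals are moved to the grain. RNA of leaves sampled after flowering can therefore hold transcripts of working leaves and of ageing leaves in one mixture. The table pairs its assembly identifiers (XLOC numbers) with no gene names, so no member can be given a function, and leaf markers could not be looked up. Members are identified by position on the MSU Rice Genome Annotation Project Release 7 coordinates.

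With 1 library in each group no value has a replicate error and no test was possible, so every difference is between libraries. Library sums ranged from 569819 to 611306 FPKM, and how many reads stand behind a value is unknown. The library labelled as roots after flowering was within 2-fold of leaves after flowering at 97.9% of the 9496 loci with 10 FPKM or more in that leaf library. Over these loci its log2 ratio to leaves after flowering, with 1 FPKM added, had quartiles of -0.23 and 0.12. The quartiles of its log2 ratio to roots before flowering were -0.14 and 1.44. For leaves after over before flowering they were -0.20 and 0.60. In this sense the library labelled as roots after flowering went against its label. It was not used to choose the members, and its values are given beside theirs. A value of exactly 0 in this table also occurs at loci that are abundant elsewhere, so it is written as listed at 0. No fold of a single locus is quoted against it. The rule, the counts and the medians include such values, with 1 FPKM added.

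Members ranged widely in abundance in leaves after flowering. Their lowest value there was 10.4 FPKM, their median 49.2 and their highest 5173. A level of at least 1000 FPKM was reached by 5 members, 46 had 100 to 1000, 70 had 20 to 100 and 29 had 10 to 20. Together they took 5.14% of the summed FPKM of that library, or 4.25% without the most abundant one. The same loci took 0.492% in leaves before flowering, 0.167% in roots before flowering, 0.135% in flower buds, 0.207% in flowers, 0.0477% in milk grains and 0.169% in mature seeds. Without the most abundant one these shares fell to 0.0481% in flower buds, 0.0699% in flowers, 0.0353% in milk grains and 0.116% in mature seeds. In the library labelled as roots after flowering, which the rule did not use, the members took 3.34%.

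In leaves before flowering the members had a median of 5.30 FPKM, and in roots before flowering 1.40 FPKM. Medians were 0.200 FPKM in flower buds, 0.414 in flowers, 0.254 in milk grains and 0.904 in mature seeds. Over all 9496 loci of the leaf library the corresponding medians were 22.1, 15.4, 17.6, 19.3, 11.0 and 15.4 FPKM. The label "specific" holds only relative to the later leaf: 50 of the 150 members (33.3%) had 10 FPKM or more in leaves before flowering, and 26 (17.3%) had less than 1 FPKM there. Over the 9496 loci these shares were 85.6% and 0.58%, and the rule caps this library at the members. Log2 ratios of leaves after over before flowering, with 1 FPKM added, had a median of 2.94 over the members and of 0.18 over the 9496 loci.

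**Figure D1:**
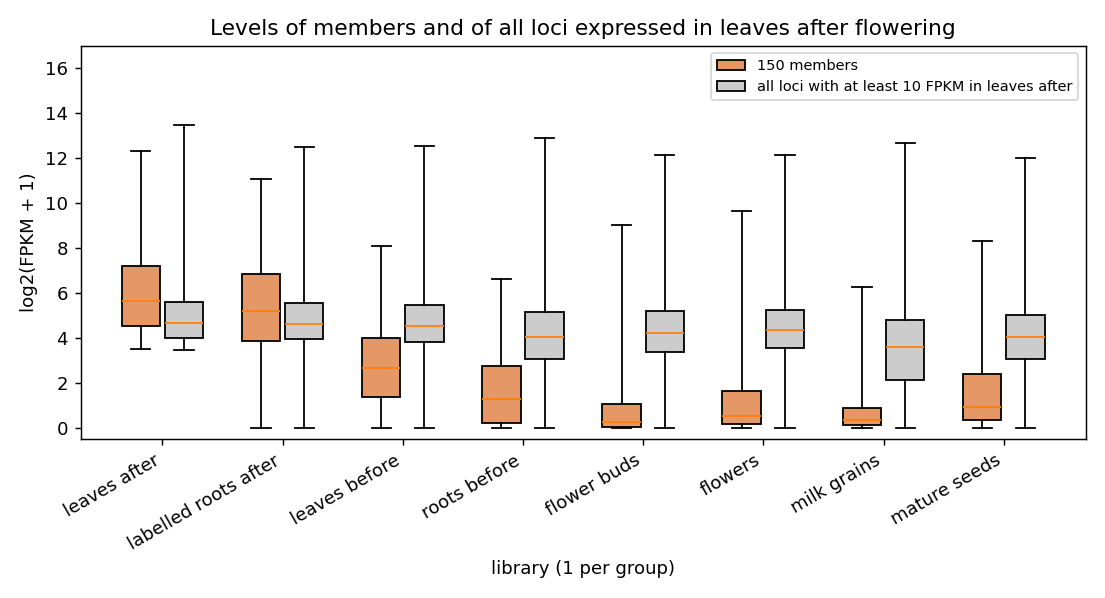
Log2(FPKM + 1) of the 150 members (orange) and of all 9496 loci with 10 FPKM or more in leaves after flowering (grey) in each library. Boxes span the quartiles, the line is the median and whiskers reach the lowest and highest value. Members have a median of 49.2 FPKM in leaves after flowering and 35.1 FPKM in the library labelled as roots after flowering, against 5.30 FPKM in leaves before flowering.

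The most abundant member stood apart from the others. It lies on chromosome 1 (XLOC_004301, 11202594 to 11203335) and had 5173 FPKM in leaves after flowering, 808 in flowers, 522 in flower buds, 317 in mature seeds, 75.8 in milk grains and 5.89 in roots before flowering. It was listed at 0 in leaves before flowering and in the library labelled as roots after flowering. Its level was thus high in flowers and seeds as well, and the leaf library nearest in kind gave no value above 0. Without it, the highest value of any member was 81.7 FPKM in flower buds, 53.2 in flowers and 83.8 in mature seeds.

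The next members in abundance had the opposite pattern across organs, low in flowers and grains. On chromosome 9 (7770805 to 7777515, a span shared by 2 loci) the more abundant locus, XLOC_065664, had 1957 FPKM in leaves after and 133 in leaves before flowering, 782 in the library labelled as roots after flowering, 6.16 in roots before flowering, 0.148 in buds, 0.306 in flowers, 3.93 in milk grains and 14.0 in mature seeds. This locus was high in leaves after flowering, at an intermediate level in the library labelled as roots after flowering, and lower in leaves before flowering.

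Chromosome 6 held the third and the fourth. One (22555789 to 22561913) had 1548 FPKM in leaves after and 157 in leaves before flowering, 1237 in the library labelled as roots after flowering, 97.5 in roots before flowering and 3.78 or less in buds, flowers, milk grains and mature seeds. The other (22779408 to 22781109) had 1454 and 274 FPKM in the later and earlier leaf, 2155 in the library labelled as roots after flowering, 4.04 in roots before flowering, 0.951 in buds, 4.98 in flowers, 3.95 in milk grains and 5.71 in mature seeds. The first of these was also present in roots before flowering, and the second was higher in the library labelled as roots after flowering than in either leaf library.

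On chromosome 12, 3 loci followed. A locus within a span shared by 2 (26912973 to 26933292) had 1219 FPKM in the later leaf, 89.8 in the earlier leaf, 1389 in the library labelled as roots after flowering, 26.9 in roots before flowering, 83.8 in mature seeds and between 9.36 and 9.58 in buds, flowers and milk grains. One in a span shared by 3 (6610566 to 6643420) had 902 and 143 FPKM in the later and earlier leaf, 706 in the library labelled as roots after flowering, 20.1 in mature seeds and 1.86 or less in the other 4 libraries. The third (20045500 to 20046313), with a position of its own, had 892 and 97.3 FPKM in the leaves, 1055 in the library labelled as roots after flowering, 19.2 in mature seeds, 2.02 in milk grains, 0.782 in roots before flowering, 0.176 in buds and 0.146 in flowers. Mature seeds were thus above milk grains at all 3.

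Of the remaining members among the 12 most abundant, 1 on chromosome 3 (26034425 to 26035357) had 846 FPKM in the later and 86.9 in the earlier leaf, 569 in the library labelled as roots after flowering, 43.3 in mature seeds, 37.2 in flowers, 6.84 in milk grains, 5.13 in buds and 3.82 in roots before flowering. A locus on chromosome 11 within a span shared by 2 (XLOC_015759, 18426018 to 18445650) had 818 FPKM in the later leaf, 13.7 in the earlier leaf, 375 in the library labelled as roots after flowering and 2.21 or less in the other 5 libraries. The latter had the highest ratio of all members to the highest of the 6 libraries of the rule, 55.5 with 1 FPKM added.

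A broader pattern was seen on chromosome 9 (16153175 to 16155170), a span whose 2 loci were both members. The more abundant had 770 FPKM in the later leaf, 120 in the earlier leaf, 598 in the library labelled as roots after flowering, 78.9 in roots before flowering, 81.7 in buds, 53.2 in flowers, 41.7 in milk grains and 36.4 in mature seeds. Chromosome 7 (20204922 to 20218702) held a member with 766 and 82.7 FPKM in the leaves, 474 in the library labelled as roots after flowering, 66.2 in roots before flowering, 14.7 in mature seeds, 9.99 in milk grains, 8.21 in flowers and 4.58 in buds. Last of the 12, a locus on chromosome 8 (16255203 to 16259596) had 753 and 123 FPKM in the leaves, 232 in the library labelled as roots after flowering, 17.6 in mature seeds, 2.88 in roots before flowering, 2.0 in milk grains, 0.176 in flowers and 0.0373 in buds. At the 11 of these 12 that were not listed at 0 there, the library labelled as roots after flowering ranked first or second of the 8.

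**Figure D2:**
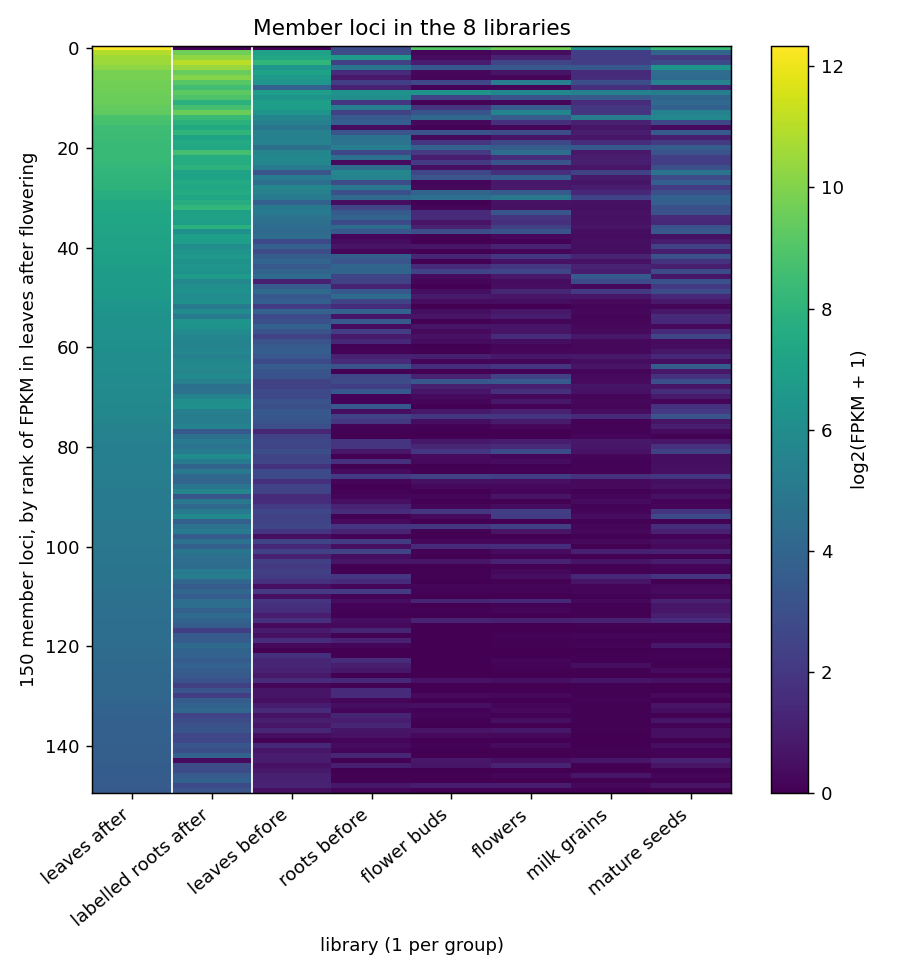
Log2(FPKM + 1) of the 150 members (rows, most abundant in leaves after flowering at the top) in the 8 libraries (columns, 1 library each; white lines set off the library that ranked the rows and the library the rule did not use). The second column follows the first, with a median of 35.1 against 49.2 FPKM, while the flower and milk grain columns are dark, with medians from 0.200 to 0.414 FPKM.

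Members differed in which of the 6 libraries of the rule was the highest, called the next library here. The library labelled as roots after flowering is left out of this order. Over all 9496 loci, which the rule does not cap, the next library can also lie above leaves after flowering. Leaves before flowering came next at 114 of 150 members (76.0%), against 35.2% of the 9496 loci of that leaf library. Roots before flowering came next at 23 members (15.3%, against 16.9%), mature seeds at 8 (5.33%, against 12.4%) and flowers at 4 (2.67%, against 8.31%). Flower buds or milk grains came next at no member, but at 11.2% and 16.0% of the 9496 loci. The last member, XLOC_041196 in a span of 5 loci on chromosome 4 (17943808 to 17963106), was listed at 0 in all 6 libraries of the rule and had 19.6 FPKM in leaves after flowering and 14.6 in the library labelled as roots after flowering.

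Loci whose next library was roots before flowering included 1 on chromosome 1 (10470369 to 10479042). It had 316 FPKM in the later leaf, 37.6 in roots before flowering, 22.5 in the earlier leaf, 170 in the library labelled as roots after flowering and 9.39 to 13.9 in the flower and grain libraries. On chromosome 10, a locus in a span shared by 2 (19728246 to 19735043) had 277 FPKM in the later leaf, 51.7 in roots before flowering, 8.57 in the earlier leaf and 25.5 in mature seeds. Both were thus lower in leaves than in roots at the stage before flowering. The members with the highest level in roots before flowering relative to the later leaf, with 1 FPKM added to both, lay on chromosome 6. One (17194073 to 17200583) had 4.73 FPKM in roots before and 27.8 in leaves after flowering, and the other (22564356 to 22573326) had 9.63 and 53.6 FPKM.

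Mature seeds came next at a locus on chromosome 7 (1253114 to 1255812), with 437 FPKM in the later leaf, 53.7 in mature seeds, 48.4 in the earlier leaf, 36.7 in milk grains and 321 in the library labelled as roots after flowering. A shorter locus on chromosome 1 (24392840 to 24393423) had 109 FPKM in the later leaf and 7.57 in mature seeds, 5.60 in milk grains, 4.41 in roots before flowering and 1.16 in the earlier leaf. Its level in leaves before flowering was lower than in 3 of the non-leaf libraries.

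Outside leaves most members were scarce. In 95 of 150 (63.3%) none of the flower, grain and roots-before libraries reached 5 FPKM, against 4.002% of the 9496 loci, and in 50 (33.3%) all 5 were below 1 FPKM, against 1.21%. The rule caps these libraries, so the shares describe how low they lay and are no separate finding. A level of 5 FPKM was reached in roots before flowering by 42 members (28.0%, against 82.7% of the 9496 loci) and in mature seeds by 37 (24.7%, against 83.3%). It was reached in flowers by 20 (13.3%, against 89.6%), in flower buds by 14 (9.33%, against 87.3%) and in milk grains by 9 (6.0%, against 68.3%). Flowers had the higher value of the flower pair at 118 of 150 members (78.7%), against 60.5% of the 9496 loci, and mature seeds the higher of the grain pair at 124 (82.7%), against 67.2%. Most of these levels are below 1 FPKM, and the median log2 ratio was 0.13 for flowers over buds and 0.44 for mature seeds over milk grains, close to the 0.09 and 0.47 of all 9496 loci. After median-of-ratios scaling 78.0% of members and 58.0% of the 9496 loci were higher in mature seeds, since this scaling moves the median of this log2 ratio over all loci tested from 0.43 to 0.09.

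The highest ratios to the highest of the 6 rule libraries, with 1 FPKM added to both values, belonged to loci of moderate abundance after the chromosome 11 locus. Without the added FPKM, some less abundant members ranked above them. On chromosome 12 (6231362 to 6235563) a locus had 29.4 FPKM in the later leaf, 0.437 in the earlier leaf, 11.1 in the library labelled as roots after flowering and 0.0979 or less in the other 5 libraries, a ratio of 21.2. Chromosome 1 (20124193 to 20126856) held a locus with 137 and 5.57 FPKM in the leaves, 117 in the library labelled as roots after flowering and 0.936 or less elsewhere, a ratio of 21.0. A locus on chromosome 4 (12533989 to 12540114) had 87.9 and 3.35 FPKM in the leaves, 2.06 in roots before flowering and 33.4 in the library labelled as roots after flowering, a ratio of 20.4. Between the last 2 of these ranked XLOC_041196, which was listed at 0 in all 6 rule libraries, so its ratio is not quoted. The median ratio over the members was 6.91, and 33 of them had a ratio of at least 10.

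At the limits of the rule, values on either side were close. The lowest members by level had 10.4, 10.6 and 11.2 FPKM in leaves after flowering, and the nearest loci left out had 9.96, 9.79 and 9.56 FPKM with ratios of 8.63, 7.69 and 7.63. By ratio, the lowest members had 5.0, 5.01 and 5.01, and the nearest loci left out had 4.99, 4.96 and 4.95. One of the lowest by ratio, on chromosome 6 (23811911 to 23816183), had 38.7 FPKM in the later and 6.91 in the earlier leaf. Just outside, a locus on chromosome 11 (2982905 to 2984969) had 17.9 and 2.80 FPKM in the same libraries.

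The library labelled as roots after flowering played no part in the choice. Their median there was 35.1 FPKM, the quartiles were 13.6 and 114.5 FPKM, and 128 of 150 (85.3%) had at least 10 FPKM, against 93.6% of the 9496 loci. It was above the highest of the 6 rule libraries at 148 of 150 members, where 26.8% of all 9496 loci had this order. The rule caps those 6 libraries at the members and not at all 9496 loci, so this order is favoured by the choice. The library labelled as roots after flowering was within 2-fold of leaves after flowering at 118 members (78.7%), more than 2-fold lower at 32 (21.3%) and more than 2-fold higher at none. Over the 9496 loci 97.9% were within 2-fold, 1.74% more than 2-fold lower and 0.40% more than 2-fold higher. Among the 394 leaf-enriched loci that are not members (at least 10 FPKM in either leaf library and at least 5 times the flower, grain and roots-before libraries, with 1 FPKM added), 361 (91.6%) were within 2-fold, 23 were lower and 10 higher. The median log2 ratio of this library to leaves after flowering was -0.49 over the members, -0.04 over the 394 other leaf-enriched loci and -0.05 over the 9496. Members were chosen for a high value in the leaf library of this ratio, so a ratio below 0 is favoured by the choice.

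Across the 150 members, levels in leaves after flowering and in the library labelled as roots after flowering had a Spearman rho of 0.912 (0.941 across the 9496 loci). This is across loci, which share the libraries and are not replicates. Compared with roots before flowering, the library labelled as roots after flowering was at least 4-fold higher at 133 of the 145 members with at least 5 FPKM in either, against 14.1% of 16269 loci in the whole table. Roots before flowering are capped by the rule, which favours that count. It was 125 of 144 after median-of-ratios scaling, which moves the median of this log2 ratio over all loci tested from 0.24 to -0.15. As deposited, the median log2 ratio was 3.47 over the members, 3.73 over the other leaf-enriched loci and 0.52 over the 9496 loci. The higher level than in roots before flowering was thus not particular to the members. The choice of the other leaf-enriched loci caps roots before flowering as well. Whether the later library of this pair holds root RNA was not tested.

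**Figure D3:**
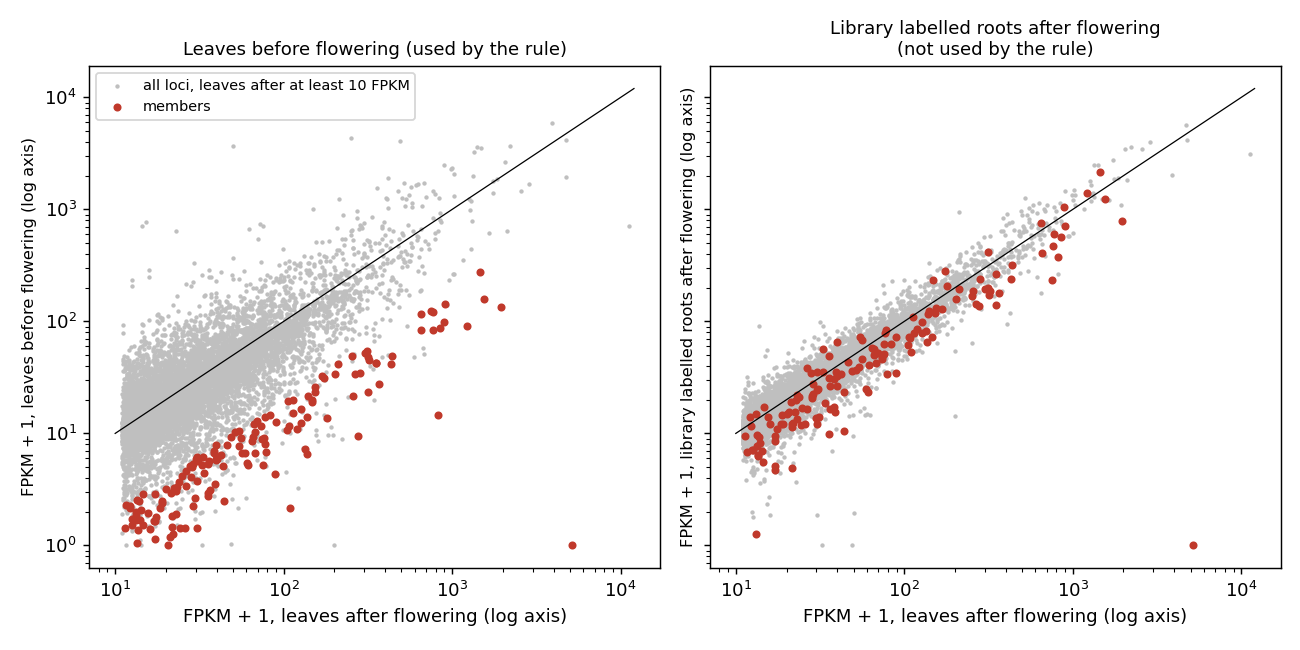
FPKM + 1 in leaves after flowering (x axis) against leaves before flowering (left, used by the rule) and the library labelled as roots after flowering (right, not used by the rule), on log axes. Red points are the 150 members, grey points all 9496 loci with 10 FPKM or more in leaves after flowering, and the line marks equal values. On the right, 118 members lie within 2-fold of the line, and 1 lies at the bottom because it was listed at 0.

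Some members departed from this pattern. Besides the most abundant member, a locus on chromosome 4 (16993760 to 16996903) had 12.2 FPKM in leaves after flowering and 0.265 in the library labelled as roots after flowering, with 0.989 in leaves before flowering and 1.18 in mature seeds. With that library added to the rule, with 1 FPKM on both sides, these 2 members remained, the first of them listed at 0 there. The next lowest were 1 on chromosome 4 (16279059 to 16288723) with 20.7 FPKM in the leaf and 3.92 in the library labelled as roots after flowering, 1 on chromosome 7 (29206932 to 29207571) with 43.0 and 9.47, 1 on chromosome 4 in a span shared by 3 (16007189 to 16162895) with 16.1 and 3.72, and 1 on chromosome 1 in a span shared by 2 (40822279 to 40830987) with 34.6 and 8.84 FPKM.

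In the other direction, 22 members (14.7%) were higher in the library labelled as roots after flowering than in the later leaf. This order was less frequent among members than among the 9496 loci (40.9%) or the 394 other leaf-enriched loci (46.7%). A locus on chromosome 12 in a span shared by 2 (6911218 to 6913999) had 56.2 against 31.7 FPKM. On chromosome 1 (855032 to 857777) the values were 63.8 and 38.7 FPKM, and in roots before flowering that locus had 0.0239. Chromosome 10 held the other 2 of the 4 furthest, in spans shared by 2 (5533275 to 5544582) and by 40 loci (18429483 to 18700435), with 282 against 172 FPKM and 232 against 146 FPKM.

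The mirrored rule, with leaves before flowering in the place of leaves after, found 46 loci. They had a median of 153 FPKM in leaves before flowering, 7.45 in leaves after and 1.17 in the library labelled as roots after flowering. At least 5 FPKM in a flower library was seen at 20 of the 46 (43.5%) and at 21 of the 150 members (14.0%), against 90.5% of the 9496 loci. The rule caps these levels relative to the leaf library, whose median was 153 FPKM for the 46 and 49.2 for the members, so 5 FPKM lies further below the cap of the former, and the difference was not tested.

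Members were spread unevenly over the chromosomes. Chromosome 1 held 28, chromosome 4 held 24, chromosome 7 held 20 and chromosome 9 held 15, which are 2.06%, 2.996%, 2.61% and 2.92% of the loci there with 10 FPKM or more in leaves after flowering. Chromosome 5 held 2 (0.261%), chromosome 3 held 8 (0.607%) and chromosome 2 held 9 (0.790%). The other 5 chromosomes held 7 to 12 members each, 1.24% to 1.92%. Of the members, 97 (64.7%) had a position of their own, against 70.5% of the 9496 loci. The span from start to end of those 97 had a median of 2698 bp, from 201 to 18927 bp, and that of the 6693 comparable loci 3968 bp. Their quartiles were 1554 and 4096 bp, against 2623 and 5851 bp.

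Many members lay near each other. Another member was within 50 kb of 54 of the 150 members (36.0%), whereas a member was that near to 399 of the 9346 other loci with 10 FPKM or more in leaves after flowering (4.27%). Restricted to loci with a position of their own, the shares were 22 of 97 (22.7%) and 158 of 6596 (2.40%). Of the 46 loci from the mirrored rule, 19 (41.3%) had another of the 46 within 50 kb. There were 15 pairs and 7 longer runs, the latter holding 24 members. Members with the same span counted as neighbours in the 54, in the pairs and in the runs. Such spans numbered 7 and held 14 members, so some of the pairs are 2 loci of 1 span, where levels are uncertain. The place of a locus within a shared span is not given, so in long spans a distance within 50 kb is not established. A span on chromosome 6 with 2 members, for example, was 261407 bp long and held 32 loci.

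The longest run, of 5 members, lies on chromosome 9 within 17.7 kb (13919743 to 13937434). From start to end its members had 10.4, 27.8, 11.2, 15.1 and 34.5 FPKM in leaves after flowering, and 0.444, 1.23, 1.23, 0.404 and 1.96 FPKM in leaves before flowering. In the library labelled as roots after flowering they had 8.47, 21.4, 13.1, 11.1 and 30.1 FPKM, and in roots before flowering 0.403 or less. No flower or grain library exceeded 0.272 FPKM. All 5 were thus low in the 6 rule libraries and higher in the later leaf and the library labelled as roots after flowering. A further locus in the span of the fifth, with 8.61 FPKM in the later and 0.337 in the earlier leaf, missed the level of the rule.

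On chromosome 1 a run of 4 spans 18.6 kb (839191 to 857777). Leaves after flowering had 22.2, 55.3, 45.1 and 38.7 FPKM, leaves before flowering 2.31, 5.62, 6.89 and 4.76, and the library labelled as roots after flowering 21.2, 44.9, 42.7 and 63.8. Roots before flowering had 0.104 FPKM or less at each, and no flower or grain value exceeded 1.02 FPKM. Further along the same chromosome (23628691 to 23685614) 3 members had 66.7, 168 and 53.2 FPKM in the later leaf and 9.35, 31.5 and 9.40 in the earlier leaf. The middle one reached 10.2 FPKM in roots before flowering, where the others had 1.22 and 0.395.

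A run of 3 on chromosome 4 (18042128 to 18057909) had 107, 256 and 14.6 FPKM in the later and 10.7, 20.8 and 0.966 in the earlier leaf, and the last 2 share a span. On chromosome 6 (22956477 to 23069750) the values were 321, 313 and 34.7 FPKM later and 44.0, 53.0 and 4.34 earlier. In roots before flowering the first 2 of these had 24.8 and 21.9 FPKM, the third 0.0970. Chromosome 7 had runs at 1133504 to 1163372, with 22.0, 75.3 and 21.3 FPKM later and 2.07, 8.17 and 2.24 earlier, and at 21342782 to 21401720, with 18.04, 20.5 and 13.7 FPKM later and 1.39, 1.93 and 1.88 earlier. Members of a run differed in level in the later leaf by up to 17.5-fold. That was between the 2 chromosome 4 loci of 1 span, where levels are uncertain. Between members with different spans the widest difference was on chromosome 6, with 321 and 34.7 FPKM. Each member of a run stayed at 53.0 FPKM or less in leaves before flowering.

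**Figure D4:**
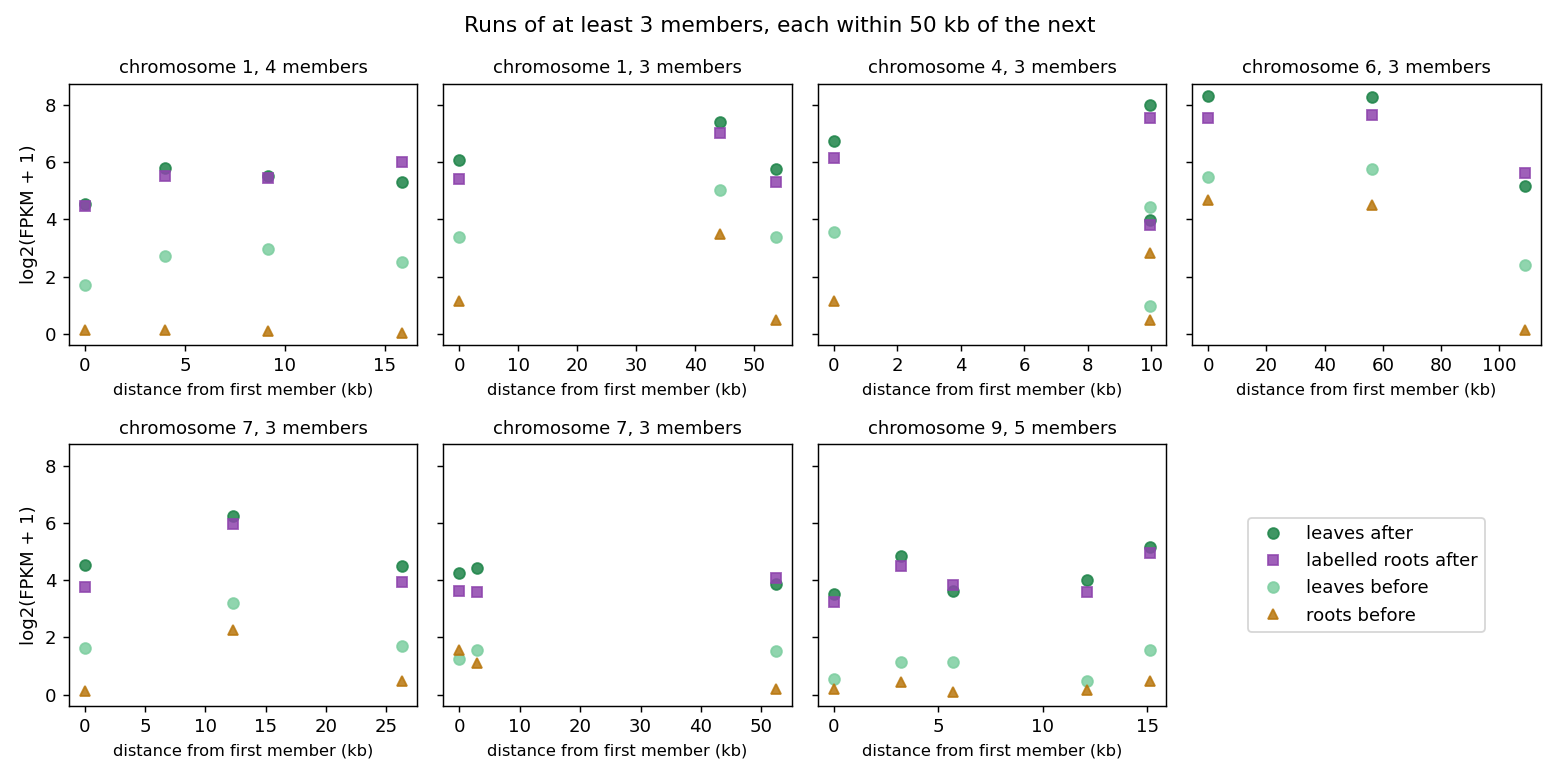
Log2(FPKM + 1) of the 24 members in the 7 runs of at least 3, against distance from the start of the first member in kb. Symbols give leaves after flowering, the library labelled as roots after flowering, leaves before flowering and roots before flowering, 1 library each. In the chromosome 9 run, the later leaf values of 10.4 to 34.5 FPKM lie above earlier leaf values of 0.404 to 1.96 FPKM at each of 5 members.

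Loci next to members that are not members themselves were examined, because the rule did not choose them. Within 10 kb of a member with a position of its own, and not overlapping such a member, 111 non-member loci reached 5 FPKM in either leaf. Of these, 18 (16.2%) were at least 4-fold higher in leaves after than before flowering, against 2.90% of all 14639 non-member loci tested, and 3 (2.70%) were at least 4-fold lower, against 2.52%. Their median log2 ratio was 0.70, against 0.05. Among the 18 is XLOC_066119 on chromosome 9, which has the span of another member and is also counted below among non-members sharing a span.

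The most abundant of these neighbours lay on chromosome 12 on both sides of a member. The member (22594857 to 22597017) had 74.7 FPKM in the later and 4.27 in the earlier leaf, and 5.04 in mature seeds. The neighbour before it (22591675 to 22593522) had 589 and 47.4 FPKM in the leaves and 120 in roots before flowering, and the one after it (22599906 to 22602386) had 931 and 141 FPKM, with 142 in flowers and 202 in mature seeds. All 3 were higher in the later leaf, and the outer ones missed the rule through their levels in roots before flowering and in mature seeds. Chromosome 3 gave a further case: beside the member at 26034425, a locus (26032939 to 26033802) had 108 and 9.01 FPKM in the leaves, 73.0 in mature seeds and 51.2 in milk grains.

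Of the members, 53 shared their span with other loci, 36 of them with 1 other and 11 within spans of 5 or more, up to 40. Reads without strand cannot be assigned between overlapping loci on opposite strands, so levels in shared spans are uncertain. Of 84 non-members that shared a span of any size with a member and reached 5 FPKM in either leaf, 13 (15.5%) were at least 4-fold higher in leaves after flowering and 1 was 4-fold lower, with a median log2 ratio of 0.18, against 2.90% higher and a median of 0.05 over all non-members tested. Among them, of 13 non-members that shared a 2-locus span with a member and had 5 FPKM or more in a leaf library, 7 were at least 4-fold higher in leaves after flowering and none was 4-fold lower, with a median log2 ratio of 2.11. The partner of the chromosome 11 locus with the highest ratio (XLOC_015760) had 121 FPKM in the later and 2.28 in the earlier leaf, 29.98 in roots before flowering and 55.1 in the library labelled as roots after flowering.

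In 7 cases 2 members shared a span. Their levels differed within a span by 1.096-fold to 51.5-fold in leaves after flowering. In the chromosome 9 span at 7770805 the ratio of the 2 loci was 51.5 in leaves after, 53.3 in leaves before and 54.3 in the library labelled as roots after flowering. In a span on chromosome 11 (24504244 to 24507463) it was 2.04, 1.95 and 2.01, with 55.0 and 27.0 FPKM in the later leaf. In those spans the 2 loci had nearly the same ratio in all 3 libraries. It varied more in the same order of libraries elsewhere: 3.67, 2.96 and 3.11 at 16153175 on chromosome 9, 1.96, 2.54 and 2.03 on chromosome 2 (24288644 to 24319825), 17.5, 21.5 and 14.3 at 18052101 on chromosome 4, and 2.44, 3.52 and 2.01 on chromosome 6 (27618846 to 27880253). In the chromosome 4 span at 17943808 it was 1.096 in the later leaf and 1.08 in the library labelled as roots after flowering, and 1 of the loci was listed at 0 in the earlier leaf. Whether such pairs are separate transcripts or shared reads cannot be told apart in this table.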

How the data were processed

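Poly(A) libraries of 100 cycles, paired-end and non-directional, were made with a TruSeq kit, per the labels' protocols. FPKM values per locus were computed by the authors and deposited as 1 table of 8 columns. The submitters' processing notes name TopHat, Cufflinks and Cuffdiff, without role or version. Positions follow MSU Release 7, per the file headers, and are printed as deposited; whether starts count from 0 is not given, and a span is end minus start. The RefSeq gene table at hand (assembly ASM3414082v1) held 0 of the identifiers, so lists of leaf, root and senescence genes could not be applied.

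Members were found with the rule stated in the results, in Python 3.11.15 with pandas 2.3.3. A pair of libraries was compared as log2((FPKM + 1)/(FPKM + 1)), which understates changes of low loci; a locus counted as different at 4-fold where the higher value was 5 FPKM or more. Distances are gaps between spans. The rule code was tested on simulated data. Named loci are the 12 most abundant members, the 5 with the highest ratio, those furthest between the library labelled as roots after flowering and the later leaf (4 highest, 6 lowest), extremes of the earlier leaf and of roots before flowering, runs of at least 3 members and loci next to each limit; examples by next library, partners and neighbours were chosen after their values were seen. The members and lists were chosen with earlier results of these data known. Depth is unknown: among 3092 loci below 0.15 FPKM in the later leaf and the library labelled as roots after flowering, at most 2.13% of ratios fell in any bin of 0.02 (log2), so no common read step was found. Alternatives were another pseudocount, level, fold, scaling (median of ratios over 13228 loci), own positions, the eighth library in the rule, and, chosen after seeing the data, leaving out loci listed at 0 in any library.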

Additional observations from a re-analysis of the deposited data

Results flagged for a closer look

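At 1 member, the chromosome 1 locus XLOC_004301, the leaf pair and the pair labelled roots went in opposite directions. It was listed at 0 in leaves before flowering with 5173 FPKM after, and had 5.89 FPKM in roots before flowering while listed at 0 in the library labelled as roots after flowering. With 1 library per group this difference was not tested, and a listed 0 can be a failed estimate.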

How the results depend on the processing

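No paired analysis was possible because each group held 1 library and no test was made; leaving out a replicate was not possible for the same reason. Counts were compared with the main ones within 1.5 times, and the median with its 95% binomial interval over loci (35.3 to 66.7 FPKM). The loci share 1 library and were chosen on this value, so the interval is only a yardstick and measures no error. Of 92 alternative values, 62 stayed within these limits. The alternative sets share members with the main one, so this tally is no independent evidence. The rule found 150 loci, 175 and 162 with pseudocounts of 0.1 and 0.5 FPKM, 163 with a level of 5 FPKM, 121 with 20 FPKM, 216 at 4-fold and 124 after median-of-ratios scaling, all 124 being members. At 8-fold there were 54 members, with a median of 69.6 FPKM, 47 at 10 FPKM or more in the library labelled as roots after flowering, 33 within 2-fold of it, 42 with the earlier leaf next, 5 with roots before flowering next, 11 listed at 0 in a rule library, 9 with another member within 50 kb, and 28 loci by the mirrored rule. With own positions only there were 97 members, of which 80 had 10 FPKM or more in the library labelled as roots after flowering, 74 were within 2-fold of it, 70 had the earlier leaf next and 22 had a neighbour, with 20 mirrored loci. Adding the library labelled as roots after flowering to the rule left 2 members (median 2593 FPKM), of which 0 reached 10 FPKM there, 0 were within 2-fold, 0 had the earlier leaf or roots (0) next, 1 was listed at 0 and 0 had a neighbour. With a level of 20 FPKM the median was 72.3 FPKM, 15 had roots before flowering next, 8 were listed at 0 and 33 had a neighbour; at 4-fold, 37 had roots next and 94 a neighbour. Leaving out loci listed at 0 gave 131 members, by construction 0 of them listed at 0. Neighbour counts were 47 within 20 kb and 64 within 100 kb. Limits: 1 library per group, mixed stages, unknown depth, no strand and no gene names.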
